A study of Homo sapiens with 12 samples.

Results

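LIN28B, HMGA2, HMGA1, IGF2BP1, IGF2BP2 and IGF2BP3 were examined in SW13, a human adrenal carcinoma line that lacks BRG1, the ATPase of SWI/SNF chromatin remodelling complexes. They were measured by the probe sets that the annotation of the Affymetrix U133 Plus 2.0 array gave to these symbols, 21 probe sets for 6 of the 19775 genes on the array. A probe set is the group of short probes that reports 1 transcript or several of its forms. There were 9 probe sets for HMGA2, 4 for IGF2BP3, 3 for IGF2BP1, 2 each for HMGA1 and IGF2BP2, and 1 for LIN28B, and none of them was shared with another symbol. The genes were chosen by their levels on these arrays, so the levels of the 2 lines are given as a description. Counts of probe sets past the thresholds of the call are printed for that comparison, with the share over all probe sets, and nothing is read from them.

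The 12 arrays formed 4 groups of 3, numbered as experiments 1 to 3. One stable line, SW13+pREP7, carries the empty vector and is called SW13+vector. The other, SW13+pREP7+BRG1, also carries BRG1 and is called SW13+BRG1. No other change is stated for either. Each was either mock treated or irradiated with 10 J/m2 of UV and collected 6 hours later. Each arm is a single stable line, so the effect of BRG1 and any other difference between the 2 lines cannot be told apart, and the spread between arrays is that of repeated experiments on the same line.

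These genes are known as oncofetal, active in the embryo, largely silent in most adult tissues and active again in many tumours. LIN28B is an RNA-binding protein that blocks the maturation of let-7 precursors. Mature let-7 lowers the transcripts it pairs with through its seed, and LIN28B, HMGA2 and the IGF2BP genes are textbook let-7 targets. HMGA1 and HMGA2 are small chromatin proteins that bind AT-rich DNA and bend it. IGF2BP1, IGF2BP2 and IGF2BP3 bind mRNAs such as those of IGF2 and MYC and affect their stability and translation.

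The mature let-7 microRNAs were not measured on these arrays. Their RefSeq sequences are shown for the family members whose hairpins lie in the 4 tested host transcripts, with the seed, bases 2 to 8, in capitals.
let-7a-5p: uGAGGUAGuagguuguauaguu
let-7b-5p: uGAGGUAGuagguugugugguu
let-7c-5p: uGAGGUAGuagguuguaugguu
let-7f-5p: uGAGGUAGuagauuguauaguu
miR-98-5p: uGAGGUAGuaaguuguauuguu
All 9 let-7 and miR-98 names held the seed GAGGUAG, and 11 of the 2370 mature sequences in the table did.

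Of the 6 genes, 4 had entries in the RefSeq promoter table (GRCh38.p14), 7 promoters in all: LIN28B, HMGA1 and IGF2BP2 with 2 starts each and IGF2BP3 with 1. LIN28B and IGF2BP3 had the largest falls after UV in SW13+BRG1 among the brightest probe sets of the 6 genes. Their promoters that held an E-box, the site bound by MYC and related factors, are shown as the 250 bases before the start. Capitals mark every match, on either strand, to the letters searched, which were GGGCGG (the GC box), CCAAT (the box bound by the NF-Y complex), TATAAA (the TATA box), CACGTG (the E-box), TGANTCA (the site of AP-1 dimers) and TGACGTCA (the cAMP response element).
LIN28B, chr6:104956857-104957106, plus strand: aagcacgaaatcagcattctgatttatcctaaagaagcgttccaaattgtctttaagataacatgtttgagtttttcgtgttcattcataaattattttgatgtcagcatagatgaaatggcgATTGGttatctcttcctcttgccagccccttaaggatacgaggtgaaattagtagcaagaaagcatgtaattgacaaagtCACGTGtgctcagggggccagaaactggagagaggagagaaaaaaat
IGF2BP3, chr7:23470492-23470741, minus strand: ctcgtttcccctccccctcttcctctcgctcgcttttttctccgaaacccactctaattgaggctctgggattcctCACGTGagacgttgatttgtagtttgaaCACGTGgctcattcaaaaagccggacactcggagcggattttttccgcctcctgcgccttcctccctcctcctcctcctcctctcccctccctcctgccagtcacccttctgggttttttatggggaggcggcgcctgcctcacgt
CACGTG was in these 2 of the 7 member promoters and in 6.34% of the 35116 promoters of the table. GGGCGG was in 3 of 7 against 42.6% of all, and CCAAT in 3 of 7 against 32%. The LIN28B window shown had a GC content of 38.4%, while the other LIN28B start, at chr6:104940715-104940964, had 73.6%, and the median promoter had 58%. TATAAA was in 1 of 7 against 10.7%, and TGANTCA in 1 of 7 against 6.57%. The cAMP response element TGACGTCA was in 0 of the 7 windows and in 1.65% of all. Any link of these sites to the UV effects was not tested.

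Signals were the deposited MAS signals on a linear scale, with every array scaled to a mean of 125. Array medians lay between 21.1 and 25.3. Correlations of log2 signals were 0.879 to 0.917 between arrays of a group and 0.818 to 0.893 between groups. SMARCA4, which encodes BRG1, did not have higher signals throughout in the arrays labelled SW13+BRG1. Its brightest probe set averaged 539 in mock vector arrays and 213 in mock arrays labelled SW13+BRG1 (log2 difference −1.28, adjusted p = 0.0459 by limma). One SMARCA4 probe set, 212520_s_at, was higher there, after UV (2.20, adjusted p = 0.00284). Where the probe sets lie relative to the introduced cDNA was not determined, so they were not used as a check of the labels. BRG1 protein was not measured on these arrays. NR5A1, the factor that defines steroidogenic adrenal cells, was below the array median on 11 of 12 arrays, and of 11 adrenal cortex genes on the array, 2 were above the median on all arrays. Summed signals of the 11 genes were 1857 to 2164 in SW13+vector and 999 to 1224 in SW13+BRG1. Those of 5 blood cell genes were 140 to 229 and 74.1 to 122, and 1 of them carried the difference: PTPRC, the leukocyte phosphatase gene, averaged 123 ± 41.4 (SD, n = 3) in mock SW13+vector and 7.07 ± 1.31 in mock SW13+BRG1. The part of these differences in the results was not tested.

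The arrays of experiment 3 stood apart for several of the genes. In all 4 groups the HMGA1 signal of experiment 3 lay above the mean of the other 2 arrays, by 1.02 to 1.74 on the log2 scale. IGF2BP2 lay 0.50 to 1.15 above it and IGF2BP1 0.15 to 0.93 above it. IGF2BP3 lay 0.20 to 0.83 below it in all 4 groups. LIN28B lay 0.05 to 0.27 below it in all 4 groups, and HMGA2 differed by at most 0.21. For the brightest probe sets of LIN28B, HMGA1, IGF2BP1, IGF2BP2 and IGF2BP3 the shift had the same sign in all groups. It did not for HMGA2, whose brightest ranged from −0.21 to 0.18, nor for the second probe sets of HMGA1 (−0.92 to 0.98) and IGF2BP2 (−1.20 to 0.78). Results that rest on these arrays are given with and without them.

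**Figure D1:**
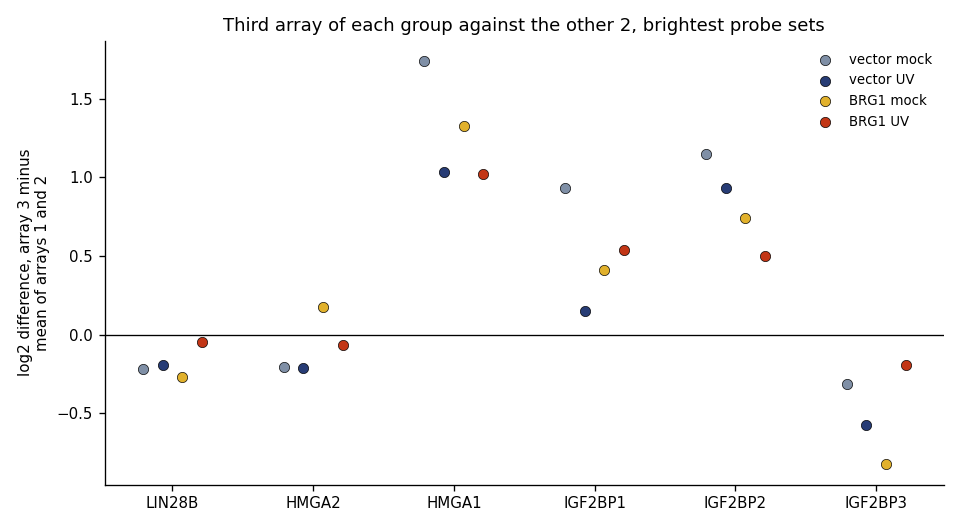
Difference of the experiment 3 array from the mean of the arrays of experiments 1 and 2 (log2 scale, vertical axis), for the brightest probe set of each gene, with 1 point per group. HMGA1 and IGF2BP2 lay above 0 in every group, IGF2BP3 below 0 in every group, and LIN28B and HMGA2 within 0.27 of 0.

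A probe set was tested when its signal reached the array median on at least 3 arrays. This left 32622 of 54613 probe sets, among them 19 of the 21 members, and all 6 genes had at least 1. A probe set was called at a limma adjusted p under 0.05 with a change above 2-fold, and for the difference of the UV effects at the adjusted p alone. Adjustment was over all 32622 probe sets. The brightest probe set, by mean log2 signal over the 12 arrays, stands for a gene where 1 value is given.

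**Figure D2:**
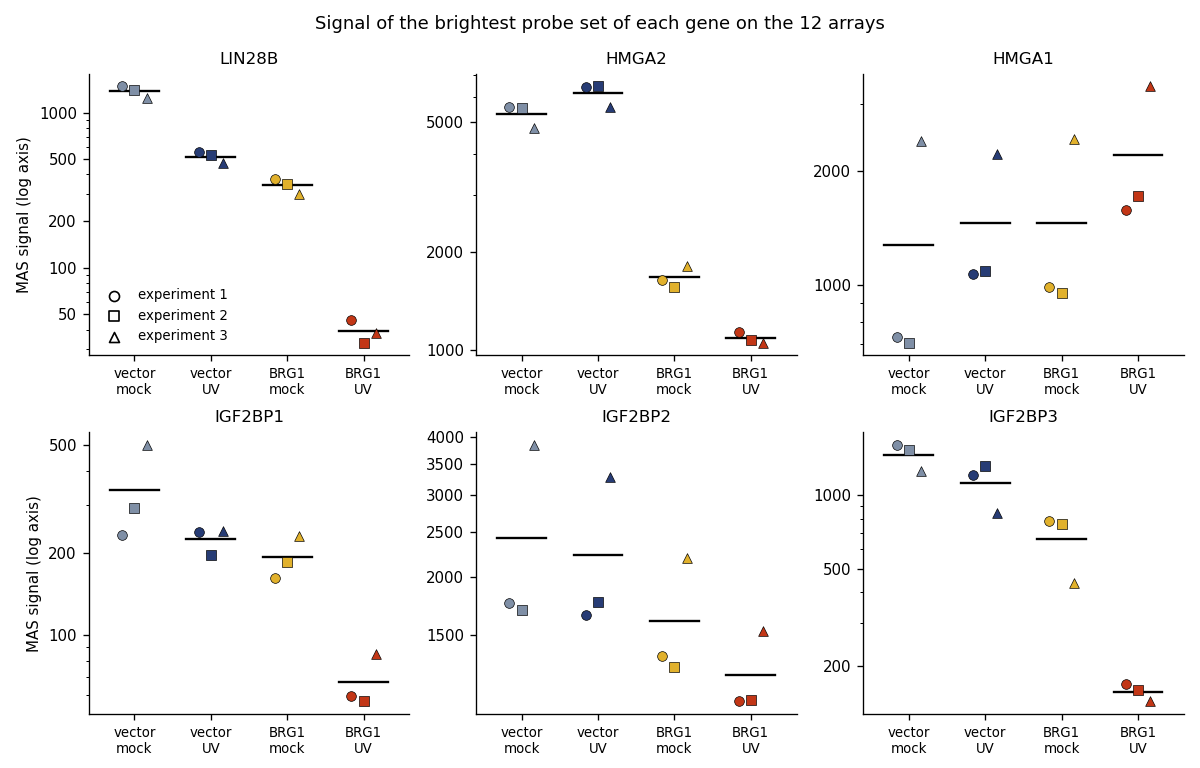
MAS signal (log axis) of the brightest probe set of each of the 6 genes on the 12 arrays, with the group mean as a bar and the experiment number as the symbol. The 4 groups of LIN28B do not overlap, and in HMGA1 the array of experiment 3 is the highest of each group.

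LIN28B was measured by 1 probe set, 229349_at; the gene lies at chr6:104937026-105083332 (GRCh38.p14). Its signals in mock-treated SW13+vector were 1479, 1398 and 1238. After UV, the same line had 559, 531 and 477. Mock-treated SW13+BRG1 had 373, 349 and 299, and after UV it had 46.2, 32.9 and 37.7. The 4 groups did not overlap, in the order vector mock, vector UV, BRG1 mock and BRG1 UV.

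LIN28B fell after UV in both lines. The log2 difference was −1.39 (SE 0.16, adjusted p = 0.000263) in SW13+vector, a 2.63-fold fall, and −3.14 (SE 0.16, adjusted p = 1.38e-06) in SW13+BRG1, an 8.79-fold fall. Within experiments 1, 2 and 3 the fall was −1.40, −1.40 and −1.38 in SW13+vector and −3.01, −3.41 and −2.99 in SW13+BRG1. The difference of these effects was past its threshold, at −1.74 (SE 0.22, adjusted p = 0.0139). It equals the difference between the lines after UV minus that in mock. The genes were chosen with the levels of all 4 groups known. The p-values of this difference and of the UV effects in each line are therefore not independent of that choice, here and for the other genes. For the difference of the UV effects, the adjusted p rose above 0.05 when experiment 1 or 2 was left out of the UV-treated vector group or of the mock BRG1 group. It also did so without the trend in the variance prior. The difference itself stayed between −1.87 and −1.63 over all single arrays left out. In bulk RNA, fewer cells of a kind and less of a transcript per cell cannot be told apart. MAS scaling sets every array to the same mean, so these are changes relative to the array. When arrays were scaled to 18 hybridization control probe sets instead, a choice made after the data were seen, the median of all tested probe sets moved by −0.27 after UV in SW13+vector and by −0.45 in SW13+BRG1.

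Between the lines, LIN28B was 4.03-fold lower in mock arrays labelled SW13+BRG1 (log2 difference −2.01, SE 0.16) and 13.5-fold lower after UV (−3.75, SE 0.16). With log2 of the signal plus 16 the difference after UV was smaller, at −3.30 (SE 0.15). The 3 experiments gave −2.05 to −1.99 for mock. LIN28B-AS1, which the annotation lists separately and is no member, had signals of 11.7 to 55.0 over the 12 arrays.

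HMGA2, at chr12:65824460-65966291, had the brightest probe set of the gene in 208025_s_at. Its signals in mock-treated SW13+vector were 5579, 5549 and 4824, and after UV 6434, 6455 and 5572. Mock-treated SW13+BRG1 had 1641, 1561 and 1810, and after UV 1130, 1068 and 1050. Both groups of SW13+BRG1 lay below both vector groups, and within SW13+BRG1 the UV arrays lay below the mock arrays. The 2 vector groups overlapped.

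In mock arrays labelled SW13+BRG1, HMGA2 was 3.18-fold lower than in those of the vector line (log2 difference −1.67, SE 0.10), and among UV-treated arrays it was 5.67-fold lower (−2.5, SE 0.10). UV lowered it in SW13+BRG1 by less than 2-fold (−0.62, SE 0.10, adjusted p = 0.0011), and with hybridization control scaling by −1.02 (adjusted p = 9.9e-05), past the thresholds of the call. In SW13+vector the difference was 0.21 (SE 0.10, adjusted p = 0.217), and its sign changed to −0.13 with quantile normalization and −0.05 with hybridization control scaling. Without experiment 3 it was 0.21 (SE 0.05, adjusted p = 0.0157), under 2-fold. The UV effects differed by −0.83 (SE 0.14, adjusted p = 0.0729), which missed the threshold. It passed with the experiment number as a block (adjusted p = 0.00719), with log2 of the signal plus 16 (0.0456), with the filter at the 75th percentile (0.0468) and without experiment 3 (−0.75, adjusted p = 0.0018).

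The other HMGA2 probe sets did not all move as the brightest did. Of the 9, 7 were tested, and the signals of the 2 untested ones, 1568286_at and 1568287_at, ranged from 0.248 to 25.2. In the mock comparison between lines, 4 of the 7 were lower past the thresholds of the call, with log2 differences of −1.76 to −1.47. In SW13+BRG1, UV lowered 1567224_at from a mean of 80.9 ± 11 (SD, n = 3) to 39.9 ± 6.7 (log2 difference −1.02, SE 0.20, adjusted p = 0.0039). With quantile normalization it was −0.80 (adjusted p = 0.036), under 2-fold and not called, and it was also not called without the mock array of experiment 3 (−0.93) or the UV array of experiment 2 (−0.91) of SW13+BRG1. In contrast, 1558683_a_at had 61.1 ± 9.1 in mock and 83.5 ± 11 after UV in the same line (0.45, SE 0.18, adjusted p = 0.131). In SW13+vector 1561633_at had 99.6 ± 10.3 in mock and 169 ± 8.5 after UV (0.76, SE 0.25, adjusted p = 0.0742). Which HMGA2 transcript forms each probe set reports was not determined.

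**Figure D3:**
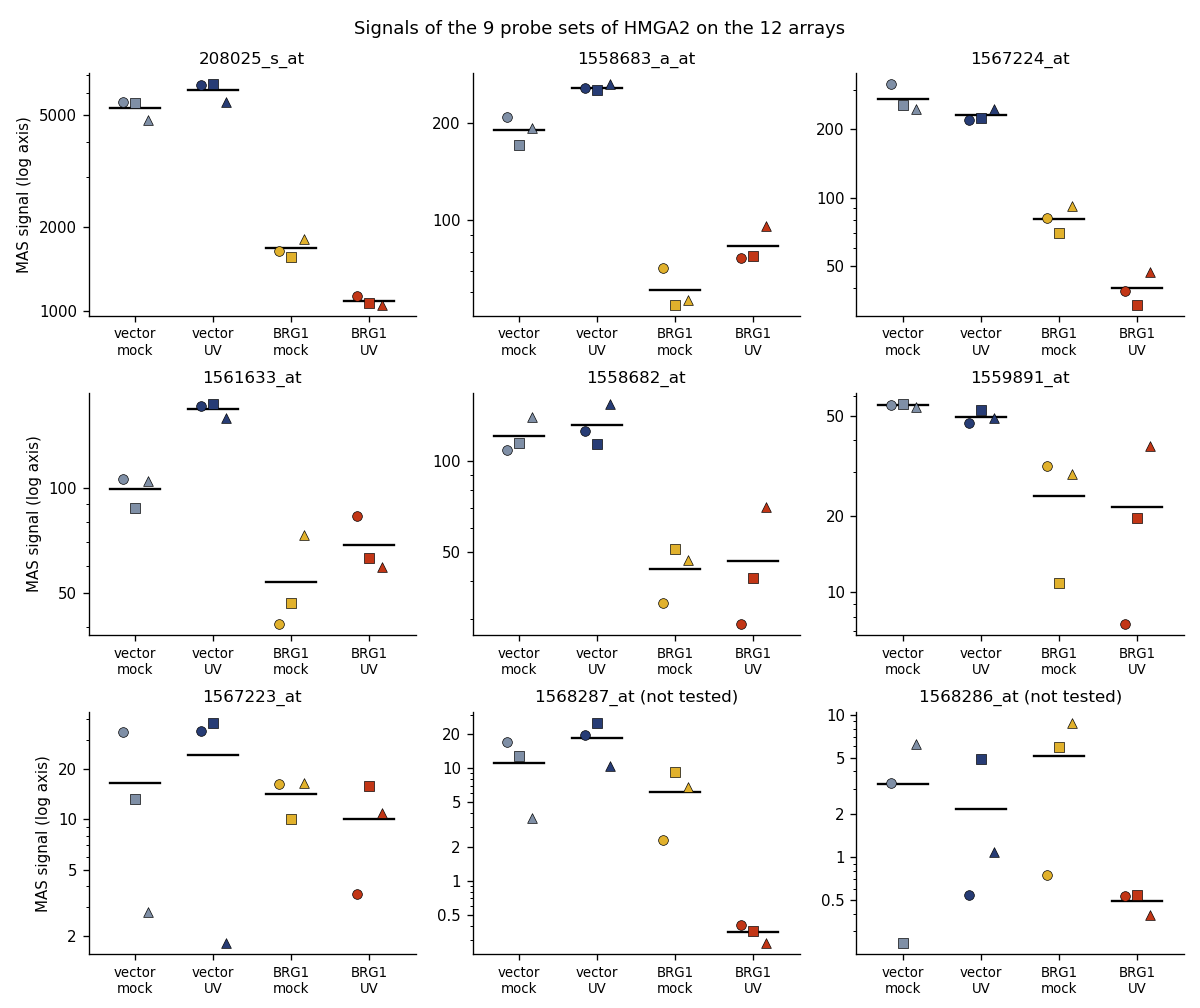
MAS signal (log axis) of the 9 HMGA2 probe sets on the 12 arrays, with group means as bars and experiments as symbols. In the 5 brightest probe sets both SW13+BRG1 groups lie below both vector groups, while the UV arrays lie below the mock arrays of SW13+BRG1 in 208025_s_at and 1567224_at but not in 1558683_a_at.

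HMGA1, at chr6:34236873-34246231, had no call in any comparison. Its brightest probe set, 206074_s_at, had 728, 706 and 2399 in mock-treated SW13+vector and 1071, 1089 and 2211 after UV. Mock-treated SW13+BRG1 had 992, 951 and 2432, and after UV 1574, 1714 and 3338. The arrays of experiment 3 were the highest in each group, and all neighbouring groups in the order of means overlapped. Within experiments 1, 2 and 3, UV differences in SW13+BRG1 were 0.67, 0.85 and 0.46, and over the group means 0.66 (SE 0.49, adjusted p = 0.46). In SW13+vector they were 0.56, 0.63 and −0.12. Without experiment 3 the UV difference was 0.76 (SE 0.07, adjusted p = 2.89e-05) in SW13+BRG1 and 0.59 (SE 0.07, adjusted p = 0.000224) in SW13+vector, both under 2-fold and so not called. With the experiment number as a block it was 0.66 (SE 0.13, adjusted p = 0.00196) in SW13+BRG1 and 0.35 (SE 0.13, adjusted p = 0.0686) in SW13+vector. Between the lines HMGA1 differed by 0.30 (SE 0.49) in mock and 0.60 (SE 0.49) after UV, opposite in sign to HMGA2, and without experiment 3 by 0.44 (SE 0.07) and 0.60 (SE 0.07). The other probe set, 210457_x_at, whose suffix marks probes that may match further sequences, had 51.8 to 220 over the 12 arrays.

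IGF2BP1, at chr17:48996558-49056145, was called after UV by the brightest of its 3 probe sets. That probe set, 227377_at, had 232, 292 and 497 in mock-treated SW13+vector and 239, 197 and 241 after UV. Mock-treated SW13+BRG1 had 162, 184 and 230, and after UV 59.6, 56.7 and 84.6. The UV-treated SW13+BRG1 arrays lay below all others, and the other neighbouring groups overlapped. IGF2BP1 fell 2.88-fold after UV in SW13+BRG1 (log2 difference −1.53, SE 0.27, adjusted p = 0.00211), by −1.44, −1.70 and −1.44 in experiments 1 to 3. In SW13+vector the difference was −0.53 (SE 0.27, adjusted p = 0.262), and its 3 experiments gave 0.04, −0.57 and −1.05. The difference of the UV effects was −1.0 (SE 0.38, adjusted p = 0.864) over 12 arrays and −1.30 (adjusted p = 0.0467) without experiment 3. The other 2 probe sets were not called after UV: 223689_at had a difference of 0.05 (SE 0.36) and 241574_s_at, with signals of 2.28 to 70.2, had −1.90 (SE 0.70, adjusted p = 0.0952). Without experiment 3 the latter was called, at −2.19 (adjusted p = 0.0469), and without the UV-treated SW13+BRG1 array of experiment 1, at −2.46 (adjusted p = 0.0481), as it was with hybridization control scaling, at −2.29 (adjusted p = 0.0343). Signals of 241574_s_at in SW13+BRG1 lay below the array median on 2 of 3 mock arrays and on all 3 UV arrays. The sizes of its differences are therefore not measured folds. Between the lines 227377_at differed by −0.77 (SE 0.27) in mock and −1.77 (SE 0.27) after UV.

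IGF2BP2, at chr3:185643130-185825042, is the member of the family that many adult tissues keep. Its brightest probe set, 218847_at, had 1757, 1697 and 3834 in mock-treated SW13+vector and 1660, 1767 and 3273 after UV. Mock-treated SW13+BRG1 had 1355, 1279 and 2197, and after UV 1081, 1088 and 1532. Neighbouring groups overlapped throughout, and the arrays of experiment 3 were the highest in each group. Within each experiment SW13+BRG1 lay below SW13+vector, by −0.37, −0.41 and −0.80 in mock and by −0.62, −0.70 and −1.10 after UV. The UV difference was −0.08 (SE 0.33, adjusted p = 0.917) in SW13+vector and −0.36 (SE 0.33, adjusted p = 0.563) in SW13+BRG1, where all 3 experiments were below 0. Without experiment 3 these were −0.01 (SE 0.06, adjusted p = 0.923) and −0.28 (SE 0.06, adjusted p = 0.00669), under 2-fold, and the differences between the lines were −0.39 (SE 0.06) in mock and −0.66 (SE 0.06) after UV. With the experiment number as a block the UV difference in SW13+BRG1 was −0.36 (SE 0.11, adjusted p = 0.0286), also under 2-fold. The one in SW13+vector was −0.08 (SE 0.11, adjusted p = 0.656). The second probe set, 223963_s_at, was called lower after UV in SW13+BRG1 (−1.11, SE 0.31, adjusted p = 0.0277), from 152, 161 and 150 to 56.3, 62.9 and 102. That call was lost with quantile normalization (−0.88, adjusted p = 0.11), when any 1 of the mock SW13+BRG1 arrays was left out (adjusted p = 0.0532 to 0.0866), and when the UV array of experiment 1 or 2 of that line was (0.0992 and 0.0882).

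IGF2BP3, at chr7:23310209-23470491, had 2 bright probe sets that moved alike. The brightest, 203820_s_at, had 1598, 1528 and 1259 in mock-treated SW13+vector and 1203, 1309 and 844 after UV. Mock-treated SW13+BRG1 had 784, 761 and 436, and after UV 170, 159 and 143. The vector groups overlapped, mock SW13+BRG1 lay below them, and UV-treated SW13+BRG1 lay below mock. IGF2BP3 fell 4.06-fold after UV in SW13+BRG1 (log2 difference −2.02, SE 0.22, adjusted p = 0.000105), by −2.21, −2.26 and −1.60 in experiments 1 to 3. In SW13+vector the difference was −0.40 (SE 0.22, adjusted p = 0.306), below 0 in each of the 3 experiments. There the adjusted p was 0.0318 with the experiment number as a block. Without experiment 3 the difference was −0.32 (adjusted p = 0.0132), and neither setting passed 2-fold. The second bright probe set, 203819_s_at, fell by 1.74 (SE 0.24, adjusted p = 0.000424) in SW13+BRG1 and gave −0.21 (SE 0.24, adjusted p = 0.671) in SW13+vector.

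The UV effects on IGF2BP3 differed between the lines by −1.62 (SE 0.31, adjusted p = 0.167) for the brightest probe set and by −1.53 (SE 0.33, adjusted p = 0.282) for the second, neither of them past the threshold in this fit. With the experiment number as a block both were, at adjusted p = 0.00102 and 0.000207. Without experiment 3 they were −1.92 (adjusted p = 4.85e-05) and −1.39 (adjusted p = 0.000558). Without the mock SW13+BRG1 array of experiment 3 alone, which had the lowest mock signal of that line, the brightest gave −1.90 (adjusted p = 0.0124). Between the lines 203820_s_at differed by −1.19 (SE 0.22) in mock and −2.81 (SE 0.22) after UV, and the mock difference was −0.91 without the mock SW13+BRG1 array of experiment 3. The other 2 probe sets were dimmer and more scattered, and neither was called for the UV effect within a line. Of these, 216493_s_at had 382, 436 and 37.7 in mock-treated SW13+vector, and without experiment 3 it was called lower after UV in SW13+BRG1 (−1.53, adjusted p = 8.81e-05).

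Over the 19 tested probe sets, UV in SW13+vector called 0 higher, against 0.665% of all tested probe sets, and 1 lower, that of LIN28B, against 3.6%. Their median log2 difference was 0.06, against −0.01 over all tested probe sets. UV in SW13+BRG1 called 0 higher, against 0.561%, and 6 lower, against 5.81%. The 6 belonged to LIN28B, HMGA2, IGF2BP1, IGF2BP2 and IGF2BP3, and HMGA1 had none. Without experiment 3 there were 8, against 7.3% of all. Their median over 12 arrays was −0.71, against −0.06. The difference of the UV effects called 0 higher, against 0.0123%, and 1 lower, against 0.0368%. Its median was −0.79, against −0.03, and without experiment 3 it called 5 lower, against 0.425%. With the experiment number as a block it called 4 of the 19 lower, from LIN28B, HMGA2 and IGF2BP3, and 53 of all 32622 tested probe sets. Both UV effects enter this difference, and each comparison of SW13+BRG1 with SW13+vector shares arrays with it. The genes were chosen with the levels of all 4 groups known, so none of these counts and medians is independent of that choice. Several of the 19 probe sets report the same gene and are not separate genes.

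**Figure D4:**
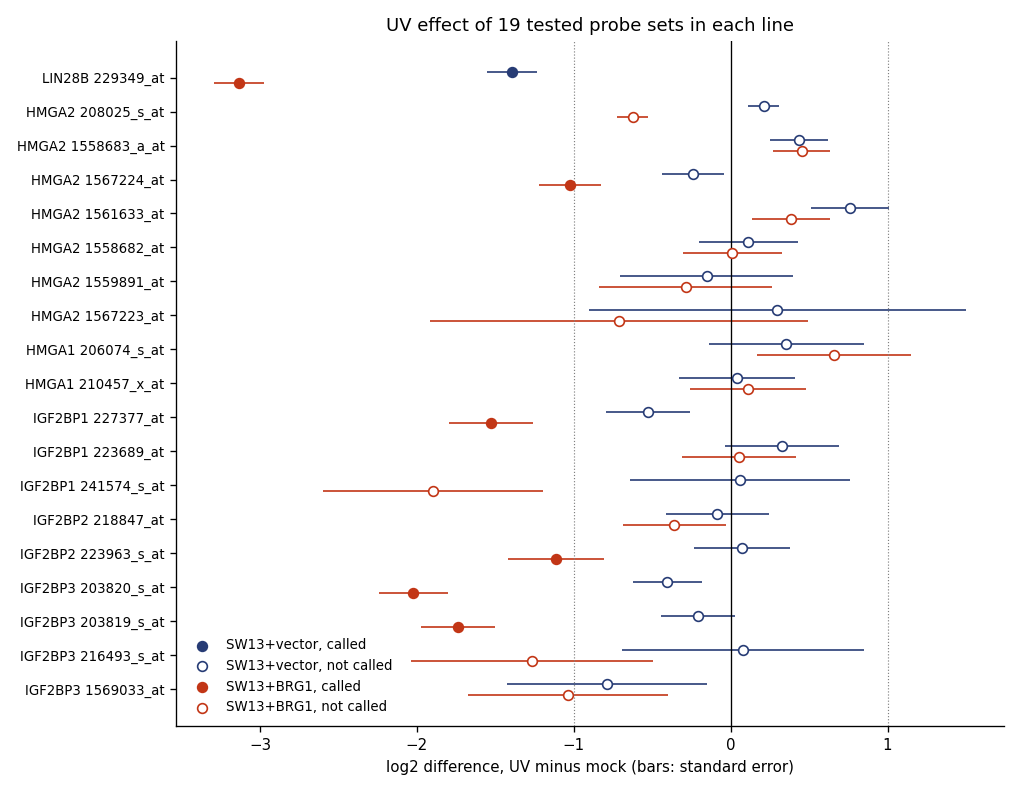
UV effect (log2 difference, UV minus mock, horizontal axis) of the 19 tested probe sets in SW13+vector (blue) and SW13+BRG1 (red), with standard errors as bars and called values filled. LIN28B is the 1 filled point in SW13+vector, and 6 points are filled in SW13+BRG1.

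Between the lines, the counts describe what the genes were chosen by, so they carry no test and nothing is read from them. In mock, 0 of 19 were past the thresholds in the higher direction, against 7.69% of all tested probe sets, and 7 in the lower, against 4.3%, from LIN28B, HMGA2 and IGF2BP3. After UV, 0 were higher by the same rule, against 7.68%, and 12 lower, against 5.97%, from all but HMGA1. Without experiment 3 the lower counts were 9 in mock, against 5.31%, and 14 after UV, against 7.38%. The medians were −0.93 in mock, against 0.00 over all tested probe sets, and −1.57 after UV, against −0.06. In mock, 203820_s_at of IGF2BP3 was past 2-fold, with a log2 difference of −1.19 (SE 0.22). Just under 2-fold lay 216493_s_at of the same gene, at −0.998 with a wider error (SE 0.77). The HMGA2 probe set 1559891_at, at −1.34 (SE 0.55), was past 2-fold and not past both thresholds.

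The gene whose pattern over the 12 arrays was most like that of LIN28B, by Pearson's r of log2 signals among 13833 genes, was SHLD2, with r = 0.994, followed by CCDC117 (0.992) and DBF4 (0.987). For HMGA2 they were RFC4, HEATR1 and POLE2 (0.991 to 0.986). For IGF2BP3 they were CCDC117, FERMT2 and ORC4 (0.989 to 0.982), so CCDC117 was among the 3 for both LIN28B and IGF2BP3. For IGF2BP1 they were TBP, SMCO4 and ZNF398 (0.976 to 0.967), and for IGF2BP2 NOB1, UBAC2 and INTS10 (0.987 to 0.971). For HMGA1 they were MLEC, UBA1 and GSS (0.990 to 0.988). The points share the 4 groups and the experiments, so each r describes a like pattern over those 12 arrays and no more.

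The nearest tested genes beside the members on the chromosome were set against the 13834 genes tested by their brightest probe set. Genes that were not tested were passed over, so these neighbours are not always adjacent. Their distances ran from 164 bases, for SMIM29 after HMGA1, to 4055697 bases, for ASCC3 before LIN28B. Of 24 neighbours, 2 on each side of a gene, the mock comparison called 2 higher in SW13+BRG1, against 9.05% of all genes, and 0 lower, against 5.09%. POPDC1, a membrane protein gene 13490 bases after LIN28B, differed by 1.18 (adjusted p = 0.000776). GIP, an incretin hormone gene beside IGF2BP1, averaged 43.9 there and 5.43 in mock SW13+vector, below the array median on all 3 arrays (adjusted p = 0.00119). UV in SW13+BRG1 called 0 higher, against 0.535%, and 2 lower, against 6.27%: LEMD3, an inner nuclear membrane protein gene before HMGA2, fell by 1.86 (adjusted p = 0.000121), and NUP42, a nuclear pore gene before IGF2BP3, by 1.17 (adjusted p = 0.0185). UV in SW13+vector called 1 higher, against 0.528%, and 1 lower, against 3.93%: GRM4, a glutamate receptor gene before HMGA1, differed by 1.85 (adjusted p = 0.0176), and LEMD3 fell by 1.35 (adjusted p = 0.00183).

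Genes that act around LIN28B and let-7 were read from lists of known members, by the brightest tested probe set of each gene. These lists and those below were chosen with earlier results of these data known. Their counts, medians and p-values are not independent of that choice. Over all genes tested this way, the mock comparison called 9.05% higher and 5.09% lower in SW13+BRG1, UV in SW13+BRG1 called 0.535% higher and 6.27% lower, and UV in SW13+vector 0.528% and 3.93%. Without experiment 3 the mock shares were 10.3% and 6.07%, and those of UV in SW13+BRG1 0.892% and 6.81%. A log2 difference against a group that lay below the array median on all its arrays is not given, since no detection calls were used and its size is not a measured fold. Some genes stand on more than 1 list. LIN28A, the paralog of LIN28B, was not tested, with a signal below the array median on all 12 arrays. Of 16 genes that process let-7 or act with it, 0 were called in mock and 0 after UV in SW13+vector. After UV in SW13+BRG1, 0 were called higher and 2 lower: AGO4, an Argonaute gene, by −1.44 (adjusted p = 0.000491), and DICER1, the RNase that cuts the precursors, by −1.02 (adjusted p = 0.00088). DICER1 averaged 2271 ± 190 (SD, n = 3) in mock SW13+vector and 1236 ± 230 in mock SW13+BRG1, then 609 ± 97.0 after UV in the latter.

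Of 4 tested transcripts whose genes hold let-7 hairpins, 1 was called higher in mock SW13+BRG1 and 0 lower. MIR100HG, which spans the hairpin of let-7a-2 at chr11:122146522-122146593, averaged 7.26 ± 5.18 in mock SW13+vector, below the array median on all 3 arrays, and 618 ± 125 in mock SW13+BRG1 (adjusted p = 0.000161). MIR99AHG, which spans that of let-7c at chr21:16539828-16539911, was called lower after UV in SW13+BRG1, from 64.5 ± 30.4 to 10.6 ± 7.81, below the array median on all 3 arrays (adjusted p = 0.0134). In SW13+vector it had 137 ± 23.5 in mock and 46.4 ± 17.2 after UV, also lower though not called. The difference of the UV effects was called for 0 of the 4. MIRLET7BHG, the host of let-7a-3 and let-7b, had 24.6 ± 21.3 and 41.3 ± 19.5 in the mock groups of SW13+vector and SW13+BRG1, and HUWE1, a ubiquitin ligase gene that holds let-7f-2 and miR-98, had 11904 ± 1095 and 11494 ± 1305. Neither was called in any comparison, and UV in SW13+vector called 0 of the 4. A host transcript's signal is not a level of the microRNA.

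Of 29 tested let-7 target genes other than the members, 2 were called higher and 7 lower in mock SW13+BRG1, with a median of −0.58 against 0.00 over all genes. The higher ones were THBS1, a matrix protein gene, from 7.55 ± 3.87, below the array median on all 3 arrays, to 1013 ± 242 (adjusted p = 2.6e-05), and PLAG1, a zinc finger gene. Among the lower ones ARID3B, a DNA-binding protein gene, went from 306 ± 123 to 17 ± 15.2, below the array median on 2 of 3 arrays (adjusted p = 0.000197). E2F5, an E2F family gene, had −1.95 (adjusted p = 3.74e-06), and CDC25A, a cell cycle phosphatase gene, had −1.91 (adjusted p = 0.0349). After UV in SW13+BRG1, 0 were called higher and 9 lower, with a median of −0.76 against 0.03. CDC25A went from 53.7 ± 28.9 to 9.55 ± 5.41, below the array median on all 3 arrays (adjusted p = 0.0103). PLAG1 had −1.84 (adjusted p = 0.00334), E2F6 −1.74 (adjusted p = 8.3e-05) and BACH1 −1.61 (adjusted p = 0.0175). UV in SW13+vector called 0 higher and 3 lower, PLAG1 (−1.47, adjusted p = 0.0178), MYC and E2F6 (−1.31, adjusted p = 0.00108), and the difference of the UV effects was called for 0 of the 29. Without experiment 3, mock called 2 higher and 8 lower, and UV in SW13+BRG1 called 0 higher and 7 lower.

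Of 11 transcripts known to be bound by IGF2BP proteins, 2 were called higher and 1 lower in mock SW13+BRG1. CD44, a cell surface receptor gene, went from 13.2 ± 9.56, below the array median on all 3 arrays, to 2615 ± 32.4 (adjusted p = 1.19e-06). FSCN1, an actin bundling gene, had 1.59 (adjusted p = 0.000637) and GLI1, a hedgehog pathway factor gene, −2.33 (adjusted p = 0.0356). After UV in SW13+BRG1, 0 were called higher and 2 lower, BTRC, a ubiquitin ligase subunit gene (−1.66, adjusted p = 0.000173), and CDK6, a cell cycle kinase gene (−1.40, adjusted p = 0.000109). Without experiment 3 the count of higher genes after UV was 1. MYC, on this list and on the let-7 list, had 1284 ± 64.3 in mock SW13+vector and 904 ± 371 in mock SW13+BRG1, and was not called in mock. UV in SW13+vector called it lower, at 511 ± 38.2 (−1.33, adjusted p = 0.00179), with BTRC (−1.01, adjusted p = 0.00693), 2 of the 11 genes, and 0 higher. In SW13+BRG1 MYC had 508 ± 31.4 after UV (−0.76, adjusted p = 0.025), under 2-fold, and the difference of the UV effects, 0.57, was not called.

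Of 10 genes linked to HMGA proteins, 3 were called higher and 2 lower in mock SW13+BRG1. CDKN2A and CDKN2B, cell cycle inhibitor genes of 1 locus, went from 888 ± 84.2 to 4386 ± 287 (2.31, adjusted p = 1.13e-08) and from 50.2 ± 13.9 to 1214 ± 262 (4.61, adjusted p = 5.25e-08). SNAI2 was higher, from 2.12 ± 1.43, below the array median on all 3 arrays, to 65.7 ± 7.47 (adjusted p = 0.000392). SNAI1 was lower, from 32 ± 7.93 to 7.91 ± 8.64, below the median on all 3 (adjusted p = 0.0252). Both are genes of the Snail family of repressors. UV in SW13+vector called 1 higher, CDKN2B (1.4, adjusted p = 0.00496), and 0 lower. After UV in SW13+BRG1, 1 was called higher, SNAI1, from those dim signals to 53.4 ± 36.8 (adjusted p = 0.0144), and 0 lower, and without experiment 3 the count of higher genes was 2. Of 13 other high mobility group genes, 1 was called higher in mock, HMGN5 (2.12, adjusted p = 0.000904), and 0 lower; after UV in SW13+BRG1, 0 were called higher and 1 lower, HMGXB4 (−1.43, adjusted p = 6.92e-05), and in SW13+vector 0 were called. HMGA1 and HMGA2 are not counted among these.

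Of 11 other oncofetal genes, 3 were called higher and 1 lower in mock SW13+BRG1, so that their median was 0.32. PEG10, an imprinted gene, went from 336 ± 51.5 to 5124 ± 430 (3.94, adjusted p = 1.01e-08) and TPBG, the trophoblast glycoprotein gene, had 3.11 (adjusted p = 9.43e-08). PLAG1 was the third. SALL4, a stem cell transcription factor gene, went from 634 ± 123 to 16.4 ± 4.99, below the array median on all 3 arrays (adjusted p = 9.73e-08). After UV, 0 were called higher and 2 lower, PLAG1 and SALL4, in each line. In SW13+BRG1 the fall of SALL4 started from those mock signals below the array median, so its size is not a measured fold. The summed signal of 5 pluripotency genes, which include SALL4, was 598 to 835 in mock SW13+vector and 42.2 to 51.9 in mock SW13+BRG1. SALL4 carried that difference, and none of the other 4 averaged above 21.1 in either mock group. Its part in the members' values was not tested.

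**Figure D5:**
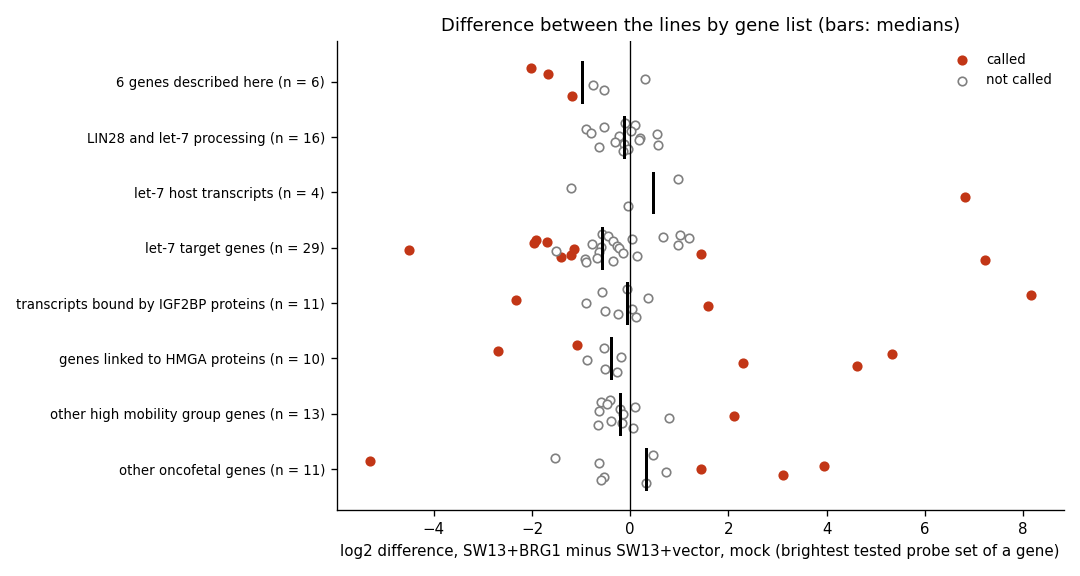
Log2 difference between mock SW13+BRG1 and mock SW13+vector (horizontal axis) for the brightest tested probe set of each gene, for the 6 genes and for 7 lists, with called genes filled and list medians as bars. The median of the let-7 target genes is −0.58, that of the other oncofetal genes 0.32, and the points farthest to the right, THBS1 and CD44, have vector signals below the array median on all 3 arrays, so that their distance from 0 is not a measured fold.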

How the data were processed

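The authors hybridized total RNA to Affymetrix U133 Plus 2.0 arrays and summarized probe sets with MAS at default statistical settings, each array scaled to a mean signal of 125. The deposited values are MAS signal intensities on a linear scale, 1 column per array, without detection calls. The number of arrays (3 per group) limits the precision.

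Signals were taken as log2. Probe sets were named by the platform annotation, coordinates by RefSeq (GRCh38.p14). Of 54675 probe sets, 62 controls were left out, and 32622 reached the array median on at least 3 of 12 arrays. A limma 3.58.1 fit (R 4.3.3; 1 mean per group, eBayes with trend) with Benjamini-Hochberg adjustment gave all adjusted p-values. The members and lists were chosen with earlier results of these data known. The rule for naming genes was all members with every probe set, up to 4 called genes with the largest change of each list, SMARCA4, the neighbours called and the 3 most similar genes. Alternatives were other normalizations, filters, a pseudocount of 16, a replicate block, the methods' t-test and leaving out arrays. The labels number the arrays as experiments, taken as a batch that same-numbered arrays share. Their deviations from the group means correlated at 0.02 to 0.29 over 18 pairs, and those of arrays with different numbers at −0.22 to 0.14 over 36 pairs. Same-numbered pairs gave 0.075 to 0.141 in experiment 1, 0.015 to 0.102 in experiment 2 and 0.179 to 0.293 in experiment 3. The highest value between different numbers, 0.137, was between arrays of experiments 1 and 2. These values set experiment 3 apart and do not separate experiments 1 and 2. The fit was tested on simulated data.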

Additional observations from a re-analysis of the deposited data

Results flagged for a closer look

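For LIN28B, the contrast of the 2 UV effects was past the threshold of its test. The UV effect in arrays labelled SW13+BRG1 minus that in SW13+vector was −1.74 on the log2 scale (SE 0.22, limma adjusted p = 0.0139 over all tested probe sets), and it was below 0 in all 3 experiments. LIN28B signals were 1372 ± 122 (SD, n = 3) in mock and 522 ± 41.6 in UV-treated SW13+vector, and 340 ± 37.7 and 39.0 ± 6.7 in SW13+BRG1. This difference is the one between the lines after UV minus that in mock, and LIN28B was chosen with those levels known, so the p is not independent of the choice.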

How the results depend on the processing

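Of 242 recomputed counts of called probe sets, 227 stayed within 1.5 times the reported count. These include the counts of higher probe sets, which were 0 in every comparison as reported, and a count that stayed 0 was taken as kept. The count of 1 lower probe set for the difference of the UV effects was 2 with log2 of the signal plus 16, 2 with the filter at the 75th percentile, 4 with the replicate block, 0 without the trend in the variance prior and 5 without experiment 3, and 0 to 2 with single arrays left out. The matching counts over all tested probe sets were 12 as reported, then 23, 13 (of 16124), 53, 6 and 128 (of 30114), and 4 to 14, in the same order. With the methods' t-test after Benjamini-Hochberg, the lower counts were 0 for UV in SW13+vector, 1 for UV in SW13+BRG1, 4 for mock and 5 for UV between lines. Over all 32622 tested probe sets they were 5, 87, 262 and 450 in the same order. With single arrays left out, the higher count between lines after UV was 0 to 1. HMGA2 after UV in SW13+vector turned to −0.13 with quantile normalization and −0.050 with hybridization control scaling. With single arrays left out, IGF2BP2 after UV in SW13+vector ranged from −0.40 to 0.30, and the differences of UV effects from −0.28 to 0.74 for HMGA1 and from −0.66 to 0.036 for IGF2BP2. The causes were not tested. Leaving out experiment 3, scaling to hybridization controls and dropping the fold threshold were chosen after seeing the data.

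The replicate block is the paired analysis by experiment number. It called 16 probe sets higher and 53 lower for the difference of UV effects, instead of 4 and 12. LIN28B had an adjusted p of 0.000397 with the block, and the probe sets that it added were 208025_s_at of HMGA2 (0.00719) and 203820_s_at and 203819_s_at of IGF2BP3 (0.00102 and 0.000207). Between the lines after UV it added 1559891_at of HMGA2. It changed no other call of the 19 probe sets. Of 12 arrays, 8 correlated best with their own number. Detection calls were not used here, so dim signals have no stated limit.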
